A study of Mus musculus with 11 samples.

Results

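The coagulation factor genes examined here were F2, F5, F7, F9, F10, F11, F12, Fgb, Proc and Serpinc1, which encode blood clotting proteins and clotting inhibitors made by the liver. The list was drawn up with earlier results of these data known, and its genes were matched by gene name on the array. All 10 were found among 27962 gene names, carried by 12 probes, and all 10 were among the 16702 genes that passed the filter on dim probes. The 11 arrays compared mouse liver RNA labelled with Cy5 with RNA of normal adult mouse liver labelled with Cy3, so a log2 ratio of 0 is the adult reference level. The 4 groups were embryonic day 14 (E14.5, 3 arrays), embryonic day 18 (E18.5, 3 arrays), postnatal day 5 (P5, 2 arrays) and postnatal day 56 (P56, 3 arrays). The labels name the source of every sample as liver, and also give a cell type, hepatoblasts at E14.5, immature hepatocytes at E18.5 and hepatocytes later. The extraction protocol names whole livers of all 4 ages, and isolated cells of both embryonic ages alone. The P5 and P56 arrays are thus whole liver by that protocol, while for the embryonic arrays the labels do not settle whether whole liver or isolated cells were used. The methods name C57BL/6 for the embryonic livers taken for cell culture, and the strain and sex behind the arrays are not stated. No treatment or genetic change is named for any group, and every array shares the same adult reference. At P56 the mean log2 ratios ran from -1.27 for F11 to 0.59 for F9, so the P56 level and the adult reference level are not the same.

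Clotting is a relay of enzymes. A trypsin-like zymogen is cut, becomes active and cuts the next, until thrombin (from F2, prothrombin) turns fibrinogen into fibrin. F7, F9 and F10 and the protein C precursor (Proc) belong with prothrombin to the vitamin K-dependent proteins, F5 is the cofactor of activated factor X, and F11 and F12 stand at the contact-activated start. Fgb encodes the fibrinogen beta chain. Serpinc1 encodes antithrombin, which blocks thrombin and factor Xa, while activated protein C destroys activated factor V. The liver parenchyma is the main source of these plasma proteins, and the fetal liver is at the same time the site of blood cell formation.

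Depth on these arrays is the signal over background. Of 43379 probe spots, between 20131 and 25718 were well above background in Cy5 on 10 arrays, and 16790 on P56 replicate 2, the lowest. Between 6 and 91 spots were saturated in Cy5, the most on P5 replicate 2. Pairs of arrays of a stage correlated over 16702 genes at r of 0.987 to 0.99 at E14.5 and 0.827 to 0.937 at P56. The labels call the arrays biological replicates, and no array pair held identical values. In bulk RNA, fewer cells of a type and less RNA per cell cannot be told apart. Of the cell type markers listed for the liver, all 11 hepatocyte markers were measured in every group, and their list median lay between -2.93 and -2.70 on the E14.5 arrays and between 0.11 and 0.22 on those of E18.5. The 10 erythroid markers had list medians between 3.35 and 3.44 on the E14.5 arrays, from 3.15 up at E18.5, between 2.41 and 3.03 at P5 and between -0.07 and -0.01 at P56.

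Each probe is a 60-base oligonucleotide, and 3 of them lie in the same part of related genes. The probes of F10, of F12 and the second probe of F9 read through the end of the serine protease domain, and are printed 5′ to 3′ because they show what separates these readings from each other. Capitals mark bases that are identical in all 3 when aligned without gaps.

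F10 (mm7 chr8:13029994-13030053, plus strand): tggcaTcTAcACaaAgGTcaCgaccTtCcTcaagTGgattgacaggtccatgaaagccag

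F12 (mm7 chr13:54498823-54498882, minus strand): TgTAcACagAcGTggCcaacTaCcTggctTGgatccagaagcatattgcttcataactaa

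F9 (mm7 chrX:55510063-55510122, plus strand): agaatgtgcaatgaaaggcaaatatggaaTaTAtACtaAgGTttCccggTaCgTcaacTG

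Of the 31 positions that all 3 probes cover, 14 are identical. F10 and F9 share 23 of 36 aligned bases and F10 and F12 share 28 of 55, and the longest stretch in common is 7 bases for the first pair and 6 for the second. Over all 53 pairs of probes of different genes among 11 probes, no shared stretch was longer than 8 bases. The Proc probe was left out of this comparison, and its position is not reported here. The other probes lie in mm7 at chr2:91476144-91476203 for F2, chr8:13009507-13009566 for F7, chr8:44026954-44027013 for F11, chr3:83147097-83147156 for Fgb and chrX:55510426-55510485 for the first probe of F9. The Serpinc1 probes lie at chr1:160964484-160964543 and chr1:160957485-160959438. The latter spans 1954 bases and the F5 probe, at chr1:164176135-164178323, spans 2189 bases, so both cross an intron. An annotation of that build was not used here, so exon and UTR labels are not given for the rest.

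Between E14.5 and E18.5 every one of the 10 coagulation genes rose. The fitted rise of factor XI (F11) was 19.8-fold, that of antithrombin (Serpinc1) 15.9-fold and that of prothrombin (F2) 15.3-fold, while that of F7 was 2.09-fold. The order of the steepest is not settled, since F2 and Fgb had saturated spots in this comparison and the second Serpinc1 probe rose by less. The median log2 fold change was 2.63 over the 10 genes and -0.01 over all genes tested. A gene was called where limma, fitted to the 11 arrays together, gave it a Benjamini-Hochberg adjusted p under 0.05. Of all genes tested 24.6% were called higher and 22.8% lower. The 11 hepatocyte markers rose as well, all 11 of 11, with a median of 2.98. Of the 10 erythroid markers 3 rose and 1 fell, with a median of 0.29. All 7 macrophage markers rose, with a median of 1.69, and 4 of 6 endothelial markers, with a median of 0.84. Their part in the rise of the coagulation genes was not tested. The arrays were scanned in 4 sessions, of which 1 held all E14.5 arrays and E18.5 replicate 1. Within it the differences of the 10 genes ran from 1.03 for F7 to 4.29 for F11.

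**Figure D1:**
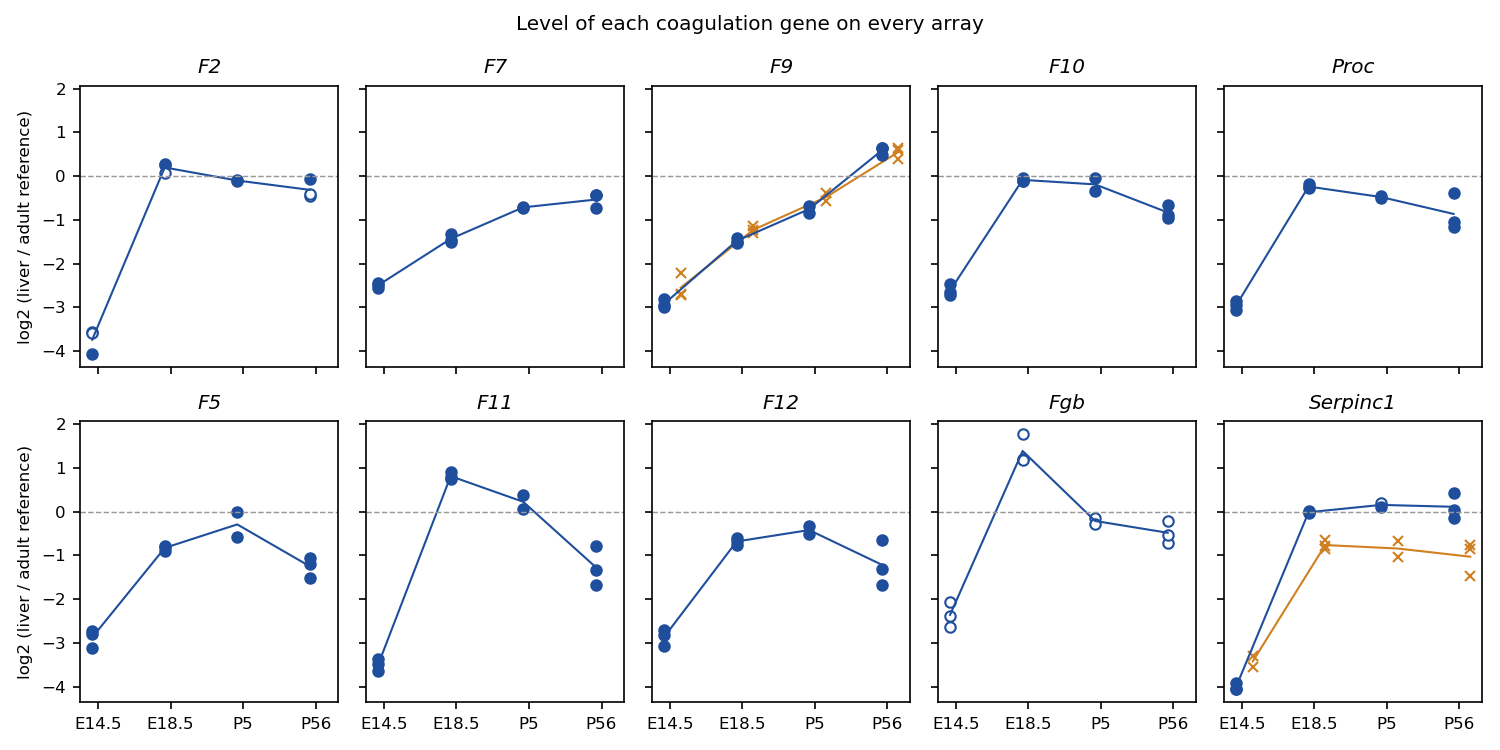
Log2 ratio of liver to adult reference (y axis) for each coagulation gene on each of the 11 arrays, by stage (x axis). Circles are the probe that stands for the gene, open where either dye was saturated; crosses are the second probe of F9 and Serpinc1; lines join stage means. All 10 genes are lowest at E14.5, and F9 alone has its highest mean at P56 with no other stage's arrays overlapping it.

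Among the vitamin K-dependent genes of the 10, F2 had the lowest start and the steepest rise. Its log2 ratio was -3.56, -3.58 and -4.07 on the 3 arrays at E14.5 and 0.27, 0.26 and 0.06 at E18.5. The P5 arrays gave -0.09 and -0.10, and those of P56 gave -0.07, -0.45 and -0.41. The E14.5 arrays lie more than 3 log2 units below all others. The rise to E18.5 was 3.94 (SE 0.15, adjusted p = 4e-09), and neither later step was called, with 95% intervals from -0.66 to 0.06 for P5 against E18.5 and from -0.57 to 0.15 for P56 against P5. The F2 probe was saturated in Cy5 on E18.5 replicate 3 and P5 replicate 2, and in Cy3 on 5 arrays, so its differences among the later stages are less certain than its difference from E14.5.

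F7, the factor that meets tissue factor to start clotting, rose in steps. Its log2 ratios were -2.45, -2.48 and -2.56 at E14.5 and -1.46, -1.51 and -1.33 at E18.5. The P5 arrays gave -0.73 and -0.69, the P56 arrays -0.44, -0.74 and -0.43. No array of an earlier stage overlapped the next up to P5, and P5 and P56 overlapped. The step to E18.5 was 1.06 (SE 0.10, adjusted p = 5.9e-06) and the step to P5 was 0.72 (SE 0.12, adjusted p = 0.0021), the latter not called in the authors' table (0.77, adjusted p = 0.088). The last step, 0.18, was not called (adjusted p = 0.23). With Cy5 alone it was called higher (0.42, adjusted p = 0.029), and with median centring in place of loess it was called lower (-0.67, adjusted p = 0.016), where the median of all genes was -0.47.

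F9, the factor missing in hemophilia B, climbed through all stages. Its brighter probe read -2.80, -2.997 and -2.95 at E14.5, then -1.40, -1.54 and -1.50 at E18.5. On the P5 arrays it read -0.83 and -0.67, and on those of P56 0.63, 0.49 and 0.64. The 4 stages do not overlap, and the P56 arrays are the ones that lie above the adult reference. The steps were 1.44 (SE 0.09, adjusted p = 2.3e-07), 0.73 (SE 0.11, adjusted p = 0.0011) and 1.34 (SE 0.11, adjusted p = 1.7e-06). In all, F9 was 11.4-fold higher at P56 than at E14.5, a log2 change of 3.50 that ran from 2.68 with median centring to 4.68 in the authors' table and was called under every setting run. Its Cy5 signal at E14.5 was 83 to 117, so the background offset weighs on this value. The second probe, whose sequence is printed above, gave differences of stage means of 1.32, 0.75 and 1.03, the same direction at each step.

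F10, whose active form makes thrombin, was near the adult reference by E18.5 and lower again at P56. It read -2.47, -2.73 and -2.66 at E14.5 and -0.03, -0.11 and -0.10 at E18.5. After birth it read -0.04 and -0.34 on the P5 arrays, then -0.65, -0.95 and -0.88 at P56. The P56 arrays all lie below the P5 arrays and well above those of E14.5. The first step was 2.53 (SE 0.12, adjusted p = 1.7e-08), the second was not called (-0.10, adjusted p = 0.64), and F10 fell from P5 to P56 by 0.64 (SE 0.13, adjusted p = 0.0018). The last call was lost with Cy5 alone (-0.40, adjusted p = 0.061) and in the authors' table (-0.69, adjusted p = 0.059).

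Proc, whose profile was closest to that of F10 (r = 0.989 over 11 arrays), read -2.85, -3.07 and -2.95 at E14.5 and -0.27, -0.18 and -0.26 at E18.5. The P5 arrays gave -0.45 and -0.50, those of P56 -0.39, -1.16 and -1.04. P56 replicate 1 lies apart from the other P56 arrays here, near the P5 level. It had the most Cy5 spots above background of the P56 arrays, 23079 beside 20131 for replicate 3 and 16790 for replicate 2. The Proc ratios fall in the same order, and the part of signal depth was not tested. The rise to E18.5 was 2.72 (SE 0.16, adjusted p = 1.2e-07). The change from P5 to P56, -0.39, was not called with all arrays (adjusted p = 0.11) and was called without P56 replicate 1 (-0.62, adjusted p = 0.00078).

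F5, the cofactor that activated protein C cuts, rose in fetal life and fell after P5. Its log2 ratios were -2.72, -3.11 and -2.80 at E14.5 and -0.80, -0.89 and -0.81 at E18.5. The P5 arrays gave -0.01 and -0.58, and those of P56 gave -1.19, -1.51 and -1.05. Both P5 arrays lie above the E18.5 arrays, and the P56 arrays fell below both. F5 rose by 2.05 to E18.5 (SE 0.16, adjusted p = 1.2e-06) and fell by 0.96 from P5 to P56 (SE 0.18, adjusted p = 0.0012). The step to P5, 0.54, was not called with all arrays (adjusted p = 0.073) and rests on 1 array: it was 0.83 without P5 replicate 3 (adjusted p = 0.027) and 0.25 without P5 replicate 2 (adjusted p = 0.37).

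The contact factors both rose in fetal life and fell after P5, F11 by more. F11 read -3.38, -3.65 and -3.48 at E14.5 and 0.79, 0.74 and 0.90 at E18.5, above the adult reference on every array. It read 0.38 and 0.06 at P5 and -0.80, -1.68 and -1.33 at P56. None of the stages overlap, and the level went down at each step after E18.5. The rise to E18.5 was 4.31 (SE 0.18, adjusted p = 1.1e-08), the 27th largest of 16702 genes. F11 fell from P5 to P56 by 1.49 (SE 0.21, adjusted p = 0.00013). The difference of P5 from E18.5, -0.59, was not called with all arrays (adjusted p = 0.084), and was called without P56 replicate 1 (adjusted p = 0.016) or replicate 2 (adjusted p = 0.033), which enter through the shared spread.

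F12 read -2.71, -3.08 and -2.82 at E14.5 and -0.76, -0.61 and -0.68 at E18.5. The P5 arrays gave -0.34 and -0.51, and the P56 arrays -0.65, -1.68 and -1.31. P56 replicate 1 again lies closest to P5. The rise to E18.5 was 2.18 (SE 0.21, adjusted p = 4.9e-06). F12 fell by 0.79 from P5 to P56 (SE 0.23, adjusted p = 0.015). This call was lost without P5 replicate 2 (-0.71, adjusted p = 0.099) and with the scan as a fixed block (-0.71, adjusted p = 0.13). It was also lost in the authors' table.

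Fgb reached the ceiling of the scanner. Its log2 ratios were -2.64, -2.38 and -2.06 at E14.5 and 1.21, 1.77 and 1.18 at E18.5. Those of P5 were -0.15 and -0.28, and those of P56 -0.21, -0.71 and -0.53. The E18.5 arrays stand above all others, and P5 and P56 overlap. Its Cy5 signal was 12217, 14349 and 17601 at E14.5, and was saturated on all 3 arrays at E18.5, on P5 replicate 2 and on P56 replicate 1. Its Cy3 signal, which comes from the same reference RNA on every array, was saturated on the 8 arrays of E14.5, P5 and P56, but read 34699, 19069 and 30428 at E18.5. The ratio at E18.5 therefore joins a Cy5 reading at its limit with a lower Cy3 reading than on any other array.

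In the Cy5 values after loess and scaling between arrays, the E18.5 level of Fgb was at least 4.04-fold higher than its E14.5 level. The Cy3 reading, saturated on all E14.5 arrays, enters these values through both steps. This bound is open to dye bias, as no array had the dyes swapped. No bound is given against P5, where replicate 2 was saturated too and replicate 3 read 62270. The fit of the log2 ratios gave 3.75 for the first step (adjusted p = 3.3e-08) and -1.60 for P5 against E18.5 (adjusted p = 6e-04). With Cy5 alone, quantile normalized, the first value was 2.08 (adjusted p = 1.1e-05). The second was -0.13 and was not called (adjusted p = 0.78). At P56 Fgb was 1.88 above E14.5 (SE 0.19, adjusted p = 2.7e-06).

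**Figure D2:**
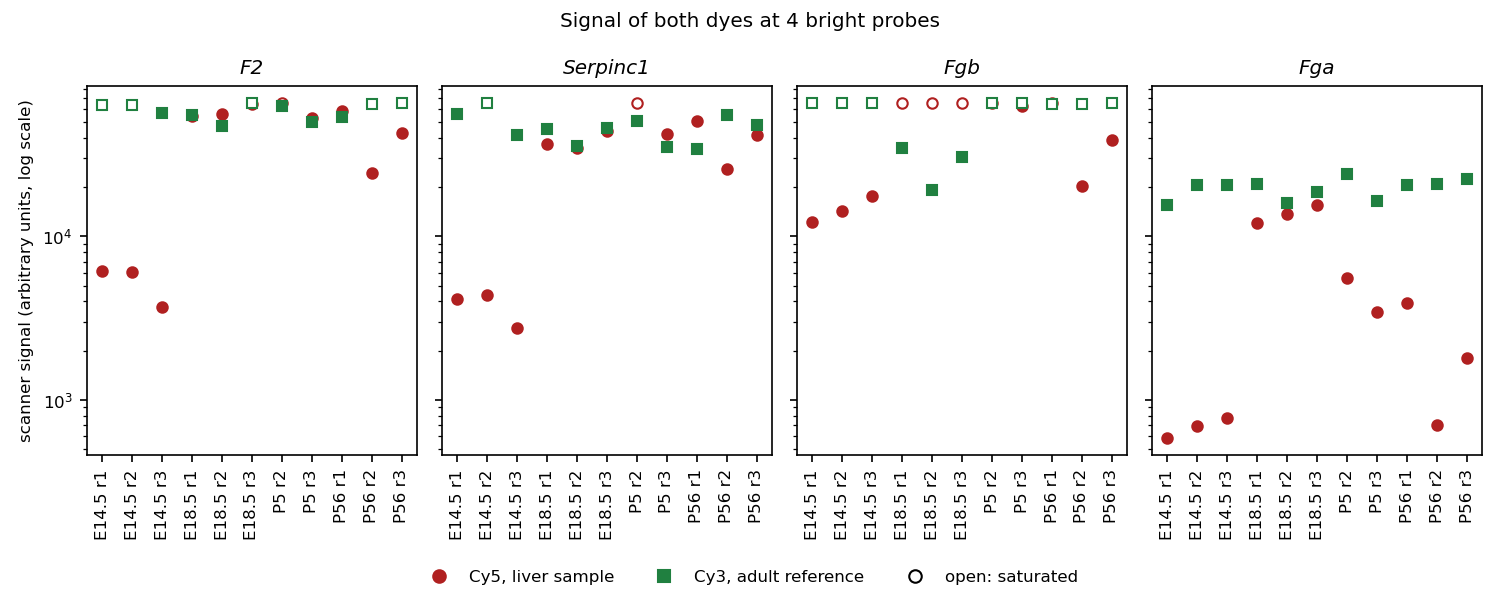
Scanner signal of Cy5 (liver sample, circles) and Cy3 (adult reference, squares) at the probes of F2, Serpinc1, Fgb and Fga on each array, on a log axis in arbitrary units, open where saturated. Fgb is saturated in Cy5 on all 3 E18.5 arrays, where its Cy3 signal lies between 19069 and 34699, while Fga was saturated on no array.

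Serpinc1, the antithrombin gene, was near the adult reference from E18.5 on in its brighter probe. That probe read -3.92, -4.07 and -4.05 at E14.5 and -0.02, -0.03 and 0.00 at E18.5. It read 0.21 and 0.10 at P5 and 0.43, -0.14 and 0.04 at P56. From E18.5 on, every array lies within 0.5 of the adult reference. The rise to E18.5 was 4.00 (SE 0.13, adjusted p = 1.8e-09), and the later steps were 0.17 (95% interval -0.15 to 0.48) and -0.04 (95% interval -0.36 to 0.27). The second probe rose by 2.66 between the same stage means, with 1 E14.5 array left out as an outlier spot, so the size of the rise depends on the probe and the direction does not. Its ratios from E18.5 on lay between -1.48 and -0.64, below those of the brighter probe. The brighter probe was saturated on P5 replicate 2 in Cy5 and on E14.5 replicate 2 in Cy3.

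After E18.5 fewer of these genes were called. From E18.5 to P5, F7 and F9 were called higher and Fgb lower, 3 of 10, where 7.32% of all genes were called higher and 6.4% lower. The median change of the 10 genes was 0.03. From P5 to P56, F9 was called higher and F5, F10, F11 and F12 lower, 5 of 10, where 20.9% of all genes were called higher and 24.7% lower. The median was -0.33, against -0.02 over all genes. All 10 erythroid markers fell in that step, with a median of -2.92, and 5 of 11 hepatocyte markers fell and 3 rose. All 6 endothelial markers and 5 of 7 macrophage markers fell as well. The part of these shifts in the falls of the coagulation genes was not tested. Without P5 replicate 2 and P56 replicate 2, the arrays with the most saturated spots and the fewest spots above background, 3 of the 5 calls remained, those of F5, F9 and F11. F10, F11 and F12 had P56 ratios in the order of Cy5 spots above background, replicate 1, then 3, then 2. F5 and F9 did not, though P56 replicate 2 read lowest in all 5. The part of signal depth was not tested. The scan that held P5 replicate 3 and all P56 arrays gave within itself differences of 1.26 for F9, -0.67 for F5, -0.49 for F10, -1.33 for F11 and -0.71 for F12. No scan held both E18.5 and P5 arrays, so scan and stage cannot be told apart within a scan for that step.

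**Figure D3:**
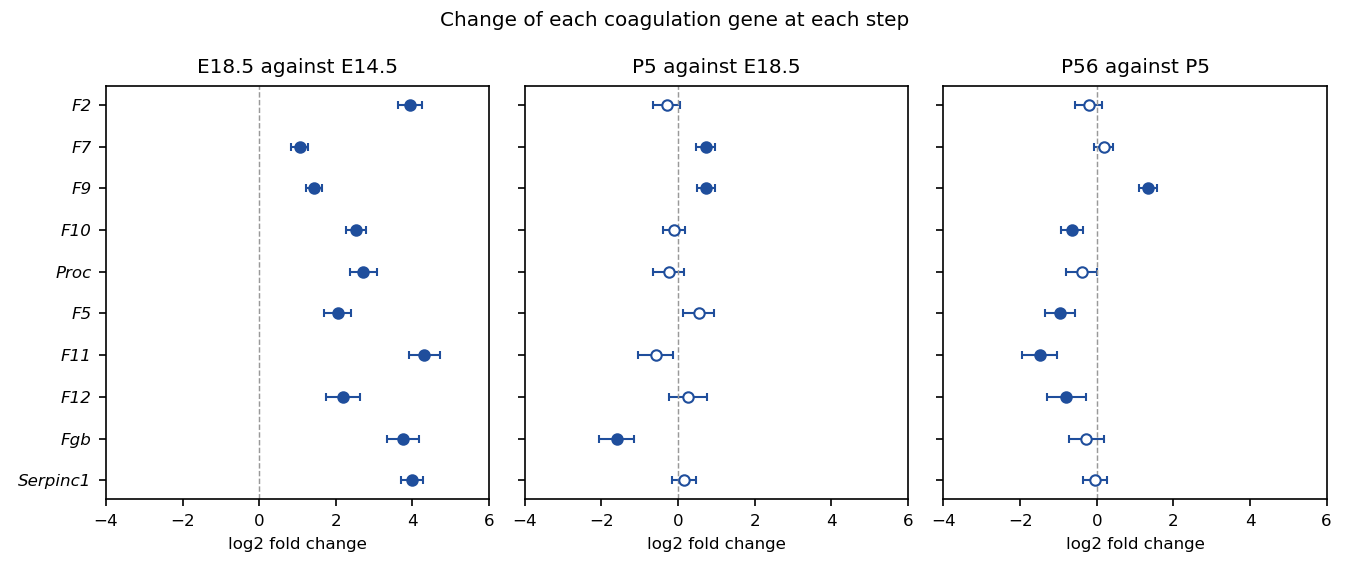
Log2 fold change (x axis) of each coagulation gene at each of the 3 steps, with its 95% interval from limma as bars and filled circles for calls at an adjusted p under 0.05. All 10 genes lie to the right of 0 in the first step, while in the last step F9 is the gene called higher and F5, F10, F11 and F12 are called lower.

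Over the whole span from E14.5 to P56 all 10 genes were called higher, where 36.1% of all genes were called higher and 34.8% lower. The smallest total rise was 1.63 for F5 and the largest 4.12 for Serpinc1, with a median of 2.03 against 0.04 over all genes. Whether the changes before and after E18.5 differed in size was tested as the E18.5 minus E14.5 change less the P56 minus E18.5 change. This difference was called higher for 8 of the 10 genes, where 28.1% of all genes tested were, and ranged among them from 2.47 for F5 to 6.39 for F11. All 8 but Serpinc1 had a lower mean at P56 than at E18.5, so a later fall adds to their difference. The E18.5 arrays enter both changes. Fgb, saturated in Cy5 on every E18.5 array, gave 5.62, and 2.61 under its lowest setting. F7 was not called (0.16, 95% interval -0.23 to 0.55, adjusted p = 0.47). F9 was called in the opposite direction (-0.63, SE 0.16, adjusted p = 0.0075), where 23% of all genes were called lower. The F9 call was lost with the processed signals of the scanner software (-0.34, adjusted p = 0.16), without the offset (-0.25, adjusted p = 0.29) and in the authors' table (-0.03, adjusted p = 0.95), and its sign turned with median centring (0.21, adjusted p = 0.57). The comparisons of E18.5 and of P56 with E14.5 share the E14.5 arrays.

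Across the 11 arrays, F7 and F9 were each other's closest match with r = 0.957, as were F2 and Serpinc1 with r = 0.987 and F10 and Proc with r = 0.989. F9 and Fgb were least alike, r = 0.407. These are descriptions over arrays that share a reference and 4 stages. Outside the list, the genes most like the mean profile of the 10 included Apof, an apolipoprotein, Cfi and C1s, complement proteases, and Man2a1, a Golgi mannosidase. Their r was 0.997 for the first 3 and 0.994 for Man2a1, among 16439 genes with a value on every array.

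Some coagulation genes are neighbours in the genome, so that their changes can be set side by side. F7 and F10 lie next to each other, with no other coding gene between them in the RefSeq annotation of GRCm38.p6. From E14.5 to E18.5 the change of F7 less that of F10 was -1.47 on the log2 scale, where the difference between both genes had an SD of 0.12 at E14.5 and 0.11 at E18.5 (n = 3 each). Over the whole span the difference was 0.17, and -0.32 with median centring. F11 and Klkb1, the plasma prekallikrein gene, are adjacent as well. The change of F11 less that of Klkb1 was 1.49 in the fetal step, 0.32 with the processed signals and 0.74 without the offset. Over the whole span it was -0.10, and -1.01 and -0.75 under those settings. Klkb1 was near the low end of the signal at E14.5, with a Cy5 signal of 63 to 75.

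The fibrinogen genes form a cluster in which Fga lies between Fgb and Fgg. Fga rose by 4.50 (adjusted p = 3.6e-08) and Fgg by 5.30 on the ratio scale (adjusted p = 7.2e-09) from E14.5 to E18.5. Fgg was, like Fgb, saturated in Cy5 on all 3 E18.5 arrays. In its Cy5 values after loess and scaling between arrays, the E18.5 level was at least 15.0-fold higher than that of E14.5. With Cy5 alone, quantile normalized, the rise of Fgg was 3.99 (adjusted p = 1.2e-06). Fga was saturated on no array and its Cy3 signal at E18.5, 16073 to 21018, was inside its range on the other arrays. Fga fell from E18.5 to P5 by 1.88 (adjusted p = 0.00078), and by 1.79 with Cy5 alone (adjusted p = 0.0022). The fetal change of Fgb less that of Fga was -0.75 and less that of Fgg -1.55, both resting on saturated spots. Over the 8 differences between neighbours tested by exact two-sided permutation, the smallest p that 3 arrays against 3 allow is 0.1, which adjusts to 0.16, so none could pass the threshold. That smallest value was reached by all 4 differences of the fetal step and by Fgb against Fgg over the whole span, where 1 P56 array had no value for Fgg.

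The promoters of F9, F11 and Fgb are shown because they are those in which a searched motif was found. HNF4 and C/EBP proteins are liver transcription factors whose sites are known from clotting factor promoters. The 250 bases before the start in RefSeq (GRCm38.p6) were searched on both strands for 3 motifs, and no match overlapped another. The part of an HNF4 site searched was CAAAGT. The core of a C/EBP site was TTNNGCAA, and the TATA box was TATAAA. Capitals mark the matches, and the 160 bases end at the base before the start.

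F9 (GRCm38.p6 chrX:59999304-59999463, plus strand): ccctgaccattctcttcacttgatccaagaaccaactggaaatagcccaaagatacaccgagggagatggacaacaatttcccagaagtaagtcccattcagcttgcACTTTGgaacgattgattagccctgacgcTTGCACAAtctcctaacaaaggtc

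F11 (GRCm38.p6 chr8:45262032-45262191, minus strand): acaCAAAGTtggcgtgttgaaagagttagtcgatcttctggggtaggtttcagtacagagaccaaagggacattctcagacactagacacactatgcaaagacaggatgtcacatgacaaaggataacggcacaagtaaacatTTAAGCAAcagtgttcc

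Fgb (GRCm38.p6 chr3:83049864-83050023, minus strand): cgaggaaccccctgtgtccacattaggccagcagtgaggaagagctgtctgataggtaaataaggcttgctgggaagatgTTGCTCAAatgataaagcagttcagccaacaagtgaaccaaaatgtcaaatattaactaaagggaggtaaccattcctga

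Of the 9 coagulation genes whose promoters were searched, these 3 held a match, and Proc was left out of the search. F9 and F11 each had CAAAGT, starting 53 and 157 bases before the start, and TTNNGCAA, 24 and 17 bases before it. Fgb had TTNNGCAA 80 bases before the start, as Fga did at 135 bases. In 32851 promoters of the same length CAAAGT was found in 12.6%, TTNNGCAA in 9.56% and TATAAA in 12.4%. F2, F5, F7, F10, F12 and Serpinc1 held none of the 3 in this window, which says only that these letters are not there. A match is a description of the sequence and not evidence of binding.

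The genes of the factors themselves were read on the same arrays. Of 9 hepatocyte regulators 8 rose from E14.5 to E18.5, with a median of 1.68, led by Nr1h4, the bile acid receptor (2.35), Cebpa (2.31) and Onecut1 (1.91). Foxa1, at 0.27, was the 1 not called (adjusted p = 0.13). Over all genes tested 24.6% were called higher in that step. Hnf4a rose by 1.47 (adjusted p = 7.8e-07). None of the 9 was called between E18.5 and P5, where 7.32% of all genes were called higher and 6.4% lower. From P5 to P56 Cebpb rose by 1.52, Nr1h4 by 1.25 and Hnf4a by 0.44, while Prox1 fell by 0.44.

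The partners of the 10 genes in the clotting system were counted by role. Over all genes tested 24.6% were called higher in the fetal step, and 24.7% lower from P5 to P56. All 7 listed cascade partners rose from E14.5 to E18.5, with a median of 4.04, led by Fgg, Fga and Kng1, the kininogen that carries prekallikrein and factor XI (4.48). From P5 to P56 Kng1 fell by 2.16 and Mst1, listed here although it encodes a prothrombin-related growth factor, by 0.65. The other 5 were not called. Of 9 inhibitors and regulators 8 rose in the fetal step, with a median of 1.59. The largest rises were those of Proz (3.48), a cofactor for inhibiting factor Xa, Serpina5 (2.12), the protein C inhibitor, and C4bp (2.07). From E18.5 to P5 Serpina5 fell by 2.02, while Hrg rose by 1.42, C4bp by 1.16 and Proz by 0.72. From P5 to P56 C4bp rose by 3.29 and Serpina10, which inhibits factor Xa with protein Z, by 1.42, while Hrg fell by 1.19. Tfpi, the tissue factor pathway inhibitor, named after its values were seen as the inhibitor that did not rise in the fetal step, was not called in any of the 4 comparisons.

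Genes of fibrinolysis, the dissolving of clots, were less uniform. Of 8, 6 rose and 1 fell between E14.5 and E18.5, where 24.6% of all genes were called higher and 22.8% lower. A2m rose by 3.32 and Plg, plasminogen, by 3.19, and Plat, tissue plasminogen activator, fell by 0.92. From E18.5 to P5 A2m fell by 2.99, Cpb2 by 0.93 and Serpinf2 by 0.71, and from P5 to P56 Plg fell by 1.41, Serpinf2 by 1.38 and A2m by 1.06. Over the whole span, where 36.1% of all genes were called higher and 34.8% lower, the list median was 0.03. Of the 8 genes 2 rose and 2 fell. Plg and Cpb2 were those that rose, by 1.77 and 2.19, and Plat and A2m those that fell, by 0.95 and 0.73.

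Clotting genes made mainly by other cells were counted apart. Of 8 tested, 3 rose in the fetal step, F13a1 (1.21), F8 (0.91) and Vwf (0.61), where 24.6% of all genes were called higher. The list median was 0.11 beside 2.63 for the 10 coagulation genes. Macrophage and endothelial markers rose in that step as given above. From P5 to P56 the list median was -0.39 beside -0.33, and 4 of 8 fell, where 24.7% of all genes were called lower. There F13a1 fell by 1.88, Vwf, the carrier of factor VIII, by 1.58 and the thrombin receptor gene F2r by 1.49, beside the fall of all 6 endothelial, 5 of 7 macrophage and 4 of 6 megakaryocyte and platelet markers. The part of those cells in these changes was not tested. F3, tissue factor, likewise named after its values were seen, was not called in any of the 4 comparisons. The receptor gene F2rl1 and Furin were on the array and did not pass the filter. Of the 5 tested genes for vitamin K use and secretion all 5 rose in the fetal step, with a median of 1.40. Mcfd2, which carries factors V and VIII out of the endoplasmic reticulum with Lman1, rose by 2.20, Vkorc1, the warfarin target, by 2.03 and Lman1 by 1.40. Mcfd2 and Vkorc1 rose again from P5 to P56, by 0.67 and 0.49.

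**Figure D4:**
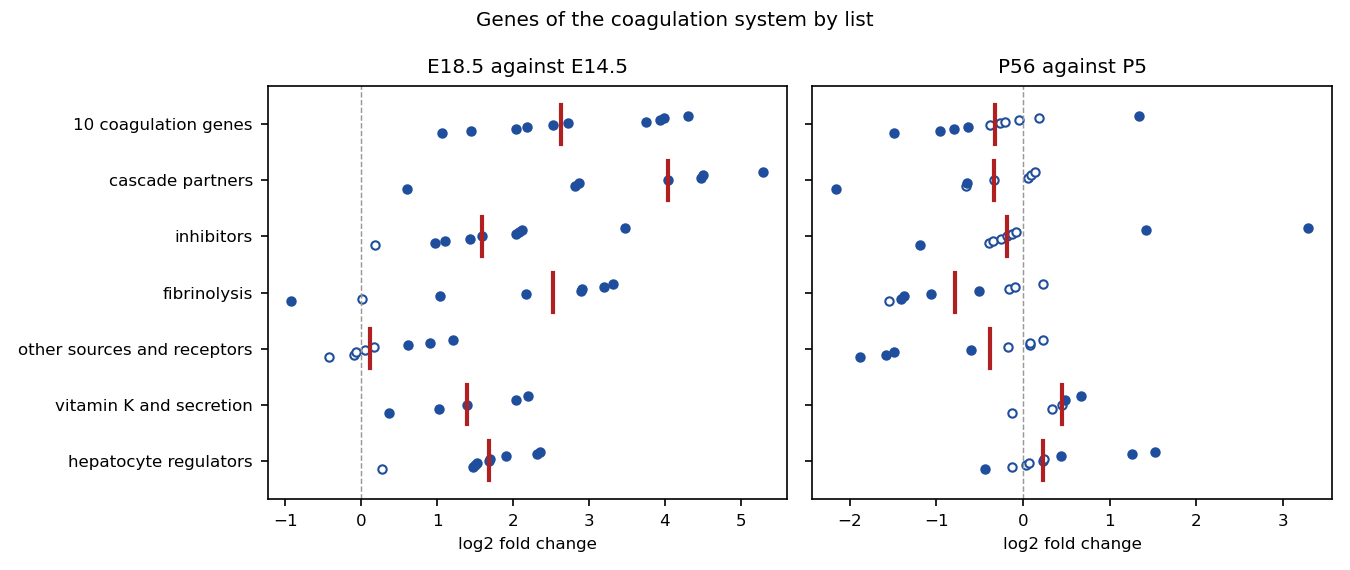
Log2 fold change (x axis) of each gene in 7 lists of the clotting system for E18.5 against E14.5 and P56 against P5, filled where called at an adjusted p under 0.05, with red bars at list medians. In the fetal step the medians are 2.63 for the coagulation genes, 4.04 for cascade partners and 0.11 for genes of other sources and receptors.

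Set against the hepatocyte marker list on the same array, the coagulation genes did not all follow the same course. The marker median rose from -2.82 ± 0.12 (SD, n = 3) at E14.5 to 0.16 ± 0.06 (SD, n = 3) at E18.5 and was -0.48 ± 0.15 (SD, n = 3) at P56, and the median of the 10 genes per array averaged -2.91, then -0.16 and last -0.66. F7 started 0.33 over the marker median, stood at -1.59 relative to it in late fetal life and at -0.06 at P56. F9 went from -0.10 to -1.63 and then to 1.07. F11 went from -0.68 to 0.65 and then to -0.79. At E18.5 the 3 arrays of F7 and F9 lie below the marker median by more than 1.5, and those of F11 all lie above it. These are positions relative to a list whose own genes rose, and no test was made of them.

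**Figure D5:**
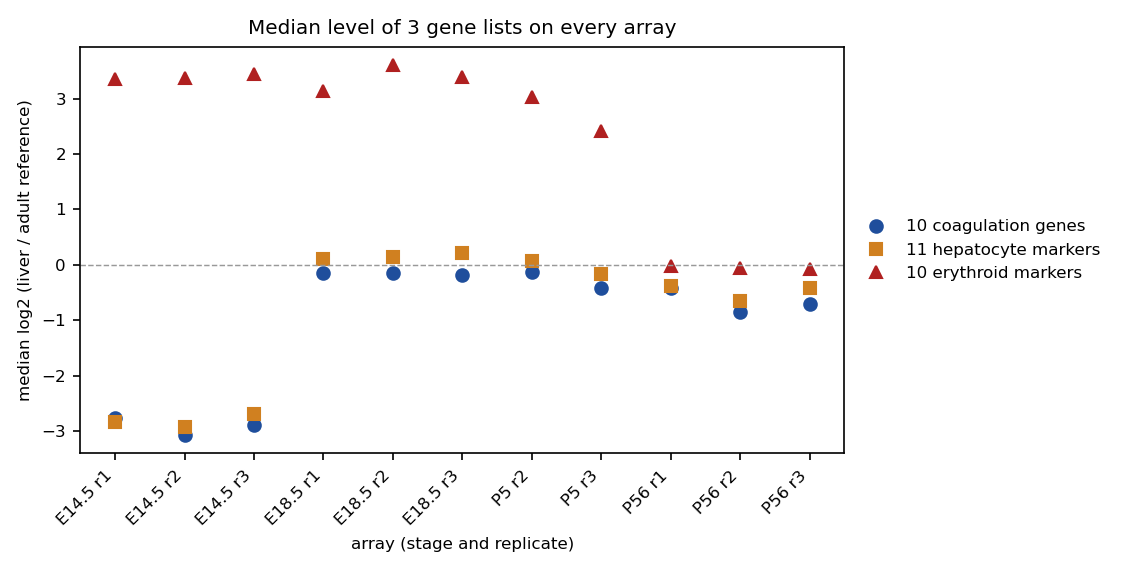
Median log2 ratio of liver to adult reference (y axis) over the 10 coagulation genes, 11 hepatocyte markers and 10 erythroid markers on each array (x axis). The coagulation and hepatocyte medians rise together from about -2.9 at E14.5 to near 0 at E18.5, and the erythroid median is above 2.4 up to P5 and near 0 at P56.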

How the data were processed

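Liver RNA (Cy5) and reference RNA (Cy3) were hybridized together on 11 Agilent arrays. The deposited scanner files (Feature Extraction 9.5.1.1) give mean and background intensity per spot and flags, and the authors also deposited a gene table of log2 ratios normalized with limma (no version given), which served as an alternative. Here normexp (offset 50) and loess within arrays were applied with limma 3.58.1 in R 4.3.3, spots flagged as outliers were left out, and saturated spots were kept. A gene entered where a probe passed the scanner's background flag in Cy5 throughout at least 1 stage, with at most 1 missing array per stage, and its brightest probe stood for it. One limma model over all 11 arrays gave the comparisons, with Benjamini-Hochberg adjustment over 16702 genes at 0.05, and was tested on simulated data. The number of arrays limits the precision. Genes named outside the 10 were, per list and comparison, up to 3 with the largest called change and up to 2 called against the list median. The members and lists were chosen with earlier results of these data known. Symbols Alb1, Cxcl4, Cxcl7, Xlkd1 and Tacstd1 are the array's older names. The arrays came from 4 scans. Settings for background, scaling, filter, probe choice, saturation, blocks, test and left-out arrays were varied, and 1 pair of arrays left out together was chosen after seeing the data. Some genes that the rule for names would give are not reported here. Sequences are from the array file and RefSeq.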

Additional observations from a re-analysis of the deposited data

How the results depend on the processing

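All measured coagulation genes were called higher in the E18.5 and P56 comparisons with E14.5 under every setting run, 10 of 10, or 8 of 8 where saturated spots were set aside and F2 and Fgb had no value. The median fetal change lay between 2.01 and 3.00. Later steps varied more. Genes called from E18.5 to P5 numbered 2292, and 1474 with median centring, 292 in the authors' table, 61 by the methods' t-test after Benjamini-Hochberg (3466 at an unadjusted p under 0.05), 4482 without P5 replicate 2 and P56 replicate 2, and 928 (without P5 replicate 3) to 3765 (without P5 replicate 2) without 1 array. The t-test called 0 of the 10 coagulation genes there, 7 at an unadjusted p under 0.05, where limma called 3. From P5 to P56, 7615 genes were called, and 4672 with scan as a fixed block, 5040 in the authors' table, 298 by the t-test, and 4741 (without P5 replicate 2) to 8212 (without P5 replicate 3) without 1 array. Of the coagulation genes 5 were called, but 3 in the authors' table, 1 by the t-test and 3 without both arrays. From E14.5 to E18.5 the authors' table gave 4798 genes against 7908. Median centring turned F7 from P5 to P56 to -0.67, the F9 timing difference to 0.21 and F7 less F10 over the whole span to -0.32, and moved the all-gene median to -0.47 for P56 against P5 and -0.33 for P56 against E14.5. The share of calls that were higher fell there to 6.84% from 45.7% and to 22.9% from 51%. Without the offset the fetal share was 62.7%, and the deposited gene table gave 63.9% there and 72.9% from E18.5 to P5, against 51.9% and 53.4%. The t-test gave 65.6% from E18.5 to P5 and 35.2% from P5 to P56. F10 from P5 to P56 was not called with Cy5 alone (-0.40, adjusted p = 0.061). In deviations from the stage mean, 1 of 15 same-number pairs of arrays correlated above 0.1, beside 10 of 30 pairs with different numbers. Such deviations sum to 0 within a stage, so they do not settle whether the replicate numbers pair the arrays. With the replicate block 7535, 1735, 6854 and 11517 genes were called in the 4 comparisons, and 10, 3, 5 and 10 coagulation genes. The cause of these shifts was not tested. Saturation limits Fgb and F2.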
